A study of Homo sapiens with 30 samples.

Results

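The comparison described here sets U2OS cells transfected to express wild-type FOXP2 (WT FOXP2) in the presence of CHIR99021 (CHIR) against U2OS cells that received CHIR and no FOXP2 plasmid. The libraries were chosen by their labels alone, and they are 10 of the 30 in the series, 5 per group, which the labels call biological replicates. CHIR was on both sides: it was given at 5 µM from 72 h before transfection, and cells were collected 48 h after transfection, in the WT FOXP2 + CHIR group with 500 ng of plasmid. U2OS is an established osteosarcoma line, the transfection was transient, and whether the cells without a FOXP2 plasmid received an empty plasmid is not stated in the labels, so what FOXP2 does and what added plasmid DNA does cannot be told apart. A further 15 libraries enter for comparison: mock-treated cells and WT FOXP2 cells, both without CHIR, and cells with CHIR and a FOXP2 plasmid that lacks residues 264 to 272, which the labels call dhelix. In 1 of the 5 WT FOXP2 + CHIR libraries a label gives the construct without the word WT, while its title matches the group.

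Wnt signals work by protecting β-catenin from a destruction complex in which glycogen synthase kinase 3 (GSK3) marks it for breakdown. Stabilised β-catenin binds TCF and LEF factors on DNA and raises a set of target genes, several of which, such as AXIN2 and RNF43, feed back to dampen the pathway. CHIR inhibits GSK3 and is widely used to switch this pathway on. FOXP2 belongs to the forkhead family of DNA-binding proteins, is best known from inherited disorders of speech and language, and is mostly described as a repressor. The series title names the question of whether β-catenin controls the activity of FOXP2 on transcription.

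Expression was measured as RNA-seq counts per gene, given here as CPM, counts scaled to a common library size. The 10 libraries held 15867847 to 24195383 counts, and 18485 genes were tested. At least 1 count was present for 24378 to 25260 genes in the CHIR libraries and for 26502 to 27845 genes in the WT FOXP2 + CHIR libraries, ranges that do not overlap. CHIR replicate 1 stood apart from its group, with a mean chi-square per gene of 28.7 against the other 4 libraries, where those had 7.43 to 10.9. Their means each include the comparison with replicate 1. The lowest value against any library of the group was 18.9 for replicate 1 and 1.78 to 3.24 for the other 4. In the WT FOXP2 + CHIR group the mean chi-square ran from 2.98 to 6.005, the highest being replicate 4, and the closest pair of libraries, at 1.39, still differed by more than sampling noise. Of 13 markers of the osteosarcoma line, all 13 had at least 1 count in the CHIR libraries and 12 in the WT FOXP2 + CHIR libraries, where the mesenchymal factor TWIST1 was at 0. TWIST1 was near absent in the CHIR libraries too, at a mean of 0.0441 CPM, and at 0 in the mock and WT FOXP2 libraries. A value after ± is the SD over 5 libraries where it follows a level, and the standard error where it follows a log2 fold change, and "rose" or "fell" marks an adjusted p under 0.05 in edgeR's quasi-likelihood test over all genes tested.

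FOXP2 was close to absent in the CHIR libraries and abundant in every WT FOXP2 + CHIR library. The CHIR libraries held 0.257, 0.249, 0.330, 1.33 and 0.357 CPM, and the WT FOXP2 + CHIR libraries held 14565, 16321, 15444, 16122 and 14041 CPM. The groups do not overlap, and CHIR replicate 4 held more FOXP2 than the other 4 CHIR libraries. The difference in mean log2 CPM was 14.88 (two-sided exact permutation test, p = 0.00794, the smallest that 5 against 5 can give). The fitted log2 fold change of FOXP2 was 14.94 ± 0.18, and 15.64 without CHIR replicate 4. Plasmid and endogenous transcripts are added together in this count. Without CHIR the same plasmid gave 7076 ± 779 CPM, so the FOXP2 level also differed between the settings with and without CHIR.

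**Figure D1:**
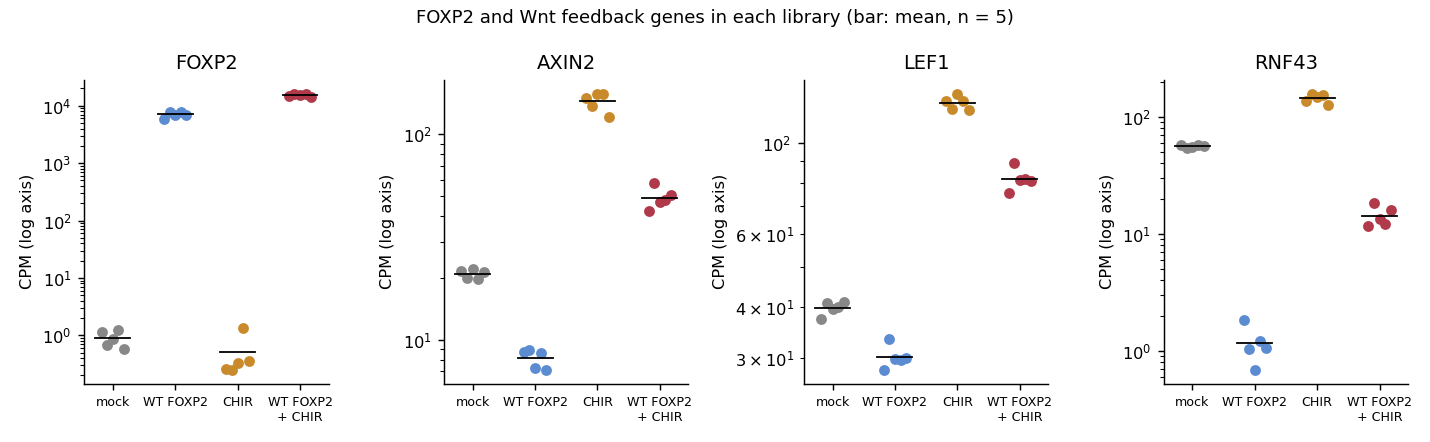
Level in CPM (log axis) of FOXP2, AXIN2, LEF1 and RNF43 in each library of the mock, WT FOXP2, CHIR and WT FOXP2 + CHIR groups, with points for libraries and bars for means (n = 5). With CHIR, all 5 WT FOXP2 libraries lay below all 5 libraries without the plasmid for AXIN2, LEF1 and RNF43.

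In all, 14484 of 18485 genes (78.4%) passed the threshold, 7058 higher (38.2%) and 7426 lower (40.2%) with WT FOXP2, and the median log2 fold change over all genes was -0.03. Of these, 2553 were at least 2-fold higher (13.8%) and 2214 at least 2-fold lower (12.0%). For 11216 genes (60.7%) the 5 libraries of a group did not overlap with the 5 of the other, 30.2% of all genes lying higher and 30.4% lower. With so many genes past the threshold, a call by itself says little, and the size of a change and its spread over libraries carry most of what follows. Without CHIR replicate 1 and WT FOXP2 + CHIR replicate 4 together, 7378 genes were higher and 7124 lower, and 13751 of the 14484 calls kept their direction and their side of the threshold.

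The genes with the largest rises were almost silent with CHIR alone. MLC1, which encodes a membrane protein of astrocyte junctions, was at 0 to 0.126 CPM in the CHIR libraries and at 97.3, 105, 103, 99.6 and 103 CPM with WT FOXP2 (log2 fold change 10.44 ± 0.16). MUC5AC, a secreted gel-forming mucin, rose from 0 to 0.124 CPM per library to 44.8, 56.7, 52.3, 54.1 and 57.8 CPM (10.03 ± 0.22, or 10.64 without CHIR replicate 2). In neither gene did a CHIR library come near the lowest WT FOXP2 + CHIR library. LPAR6, a receptor for lysophosphatidic acid, had a single count over the CHIR libraries and 72.3 to 80.9 CPM with WT FOXP2, a ratio of 6840 with a 95% counting interval of 1227 to 270192. MAL, a proteolipid of membrane sorting, also had a single count with CHIR and held 27.2 to 36.1 CPM with WT FOXP2, a ratio of 2762 with an interval of 495 to 109141. Those lone counts came from CHIR replicate 4 for LPAR6 and CHIR replicate 5 for MAL, without which the fitted log2 changes were 13.63 and 12.33.

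A further 5 of the 10 genes with the largest rises had no count in any CHIR library, so their change is given as a lower bound, with 3 counts per library taken as the floor. The genes CTD-2532D12.4, AC006372.1 and RP11-88I21.1 were at least 183-fold, 126-fold and 27.8-fold higher. EGR4, an immediate early transcription factor, was at least 40.9-fold higher, at 5.804, 7.68, 6.70, 7.91 and 6.67 CPM. CSF3, the granulocyte colony-stimulating factor, was at least 31.8-fold higher, at 5.41 ± 0.622 CPM. Floors and intervals of this kind cover counting error only.

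The genes with the largest falls were expressed with CHIR and nearly gone with WT FOXP2. FGL2, a secreted fibrinogen-like protein, was at 21.7, 7.71, 13.5, 16.5 and 6.49 CPM with CHIR and at 0 to 0.122 CPM with WT FOXP2 (-8.18 ± 0.60, or -9.40 without WT FOXP2 + CHIR replicate 1). PVALB, a calcium-binding protein of interneurons and fast muscle, was at 28.7, 32.2, 34.0, 31.1 and 32.4 CPM with CHIR and fell to 0.284, 0.427, 0.369, 0.223 and 0.114 CPM (-6.75 ± 0.18). FGL2 varied widely between CHIR libraries and PVALB little, and neither gene's groups overlapped. DSC1, a desmosomal cadherin, fell by 7.13 on the log2 scale from 19.0 ± 2.18 CPM. KANK4, a cytoskeletal adaptor, fell by 7.17 from 12.4 ± 1.84 CPM, where CHIR replicate 1 was the lowest of its group at 9.19 CPM. FILIP1, a filamin-binding protein, fell from 36.5 ± 4.84 to 0.436 ± 0.150 CPM, and MYH7B, a myosin heavy chain, from 38.7 ± 5.84 to 0.492 ± 0.106 CPM. FGL2, PVALB, DSC1, FILIP1 and MYH7B were at most at 1.38 CPM in any mock library, whereas KANK4 was at 5.54 to 6.60 CPM there. The prostate-associated noncoding RNA PART1 had 183 counts with CHIR and 1 with WT FOXP2, a ratio of 205 with an interval of 36.4 to 8145, and its fitted change of -6.99 became -8.37 without WT FOXP2 + CHIR replicate 3. RGPD2, RGPD3 and RGPD4, near-identical copies of a nuclear pore gene whose reads cannot be assigned with certainty, fell together. RGPD3 fell from 14.2 ± 2.72 to 0.191 ± 0.0841 CPM, and RGPD4 had 837 counts with CHIR and 3 with WT FOXP2, a ratio of 313 with an interval of 107 to 1519. Leaving out WT FOXP2 + CHIR replicate 1 moved the fitted change of RGPD2 from -6.66 to -7.88, and leaving out replicate 2 moved that of RGPD4 from -8.02 to -8.94.

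**Figure D2:**
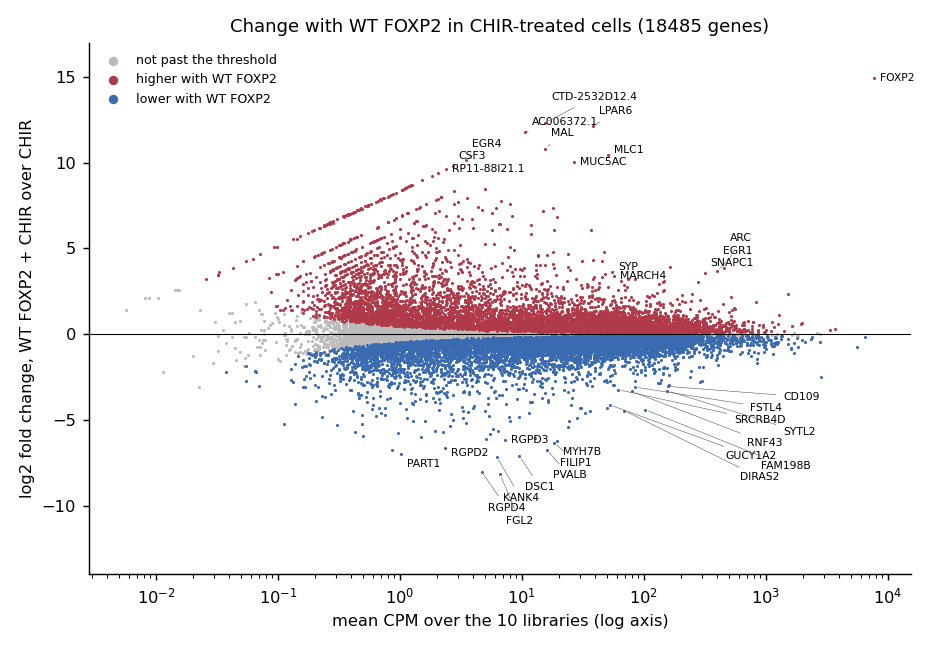
Fitted log2 fold change of WT FOXP2 + CHIR over CHIR against the mean CPM over the 10 libraries (log axis) for 18485 genes, 1 point per gene, red for higher, blue for lower and grey for genes not past the threshold. The straight upper edge holds genes with 0 counts in every CHIR library, whose fitted values depend on the prior count and are not bounds.

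Among genes with a mean of at least 50 CPM, the largest rises apart from FOXP2 and MLC1 included those of ARC, EGR1, SYP, SNAPC1 and MARCH4. ARC, an immediate early gene of synaptic plasticity, was at 40.6, 67.4, 66.0, 56.5 and 68.1 CPM and rose to 696, 955, 905, 854 and 830 CPM (3.83 ± 0.11). Replicate 1 was the lowest library for ARC in both groups, and the groups were still far apart. SYP, a synaptic vesicle protein, rose from 8.25 ± 1.34 to 101 ± 6.87 CPM. SNAPC1, a subunit of the complex that activates small nuclear RNA genes, rose from 49.8 ± 6.60 to 581 ± 22.7 CPM. MARCH4, a membrane-bound ubiquitin ligase, rose from 10.1 ± 2.33 to 104 ± 4.30 CPM.

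The largest falls at this level were in DIRAS2, FAM198B, GUCY1A2, RNF43, SYTL2, SRCRB4D, FSTL4 and CD109. DIRAS2, a small GTPase, was at 136, 128, 137, 135 and 124 CPM with CHIR and at 6.33, 6.78, 6.06, 5.46 and 5.08 CPM with WT FOXP2 (-4.46 ± 0.12, adjusted p = 5.00e-26). FAM198B, a Golgi protein, fell from 195 ± 21.6 to 9.12 ± 1.76 CPM. GUCY1A2, a subunit of soluble guanylate cyclase, fell from 99.1 ± 8.02 to 5.65 ± 0.747 CPM. CD109, a membrane-anchored co-receptor of TGF-beta, fell from 279 ± 33.7 to 33.6 ± 3.79 CPM. SYTL2, a vesicle transport protein, fell from 283 ± 57.1 to 28.6 ± 1.55 CPM, and FSTL4, a follistatin-like protein, from 150 ± 15.4 to 17.7 ± 0.809 CPM. In mock cells SYTL2 was at 28.8 CPM and FSTL4 at 5.10 CPM. SRCRB4D, a scavenger receptor protein, spread from 72.4 CPM in CHIR replicate 1 to 140 CPM in CHIR replicate 5 and lay between 10.9 and 13.8 CPM with WT FOXP2.

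**Figure D3:**
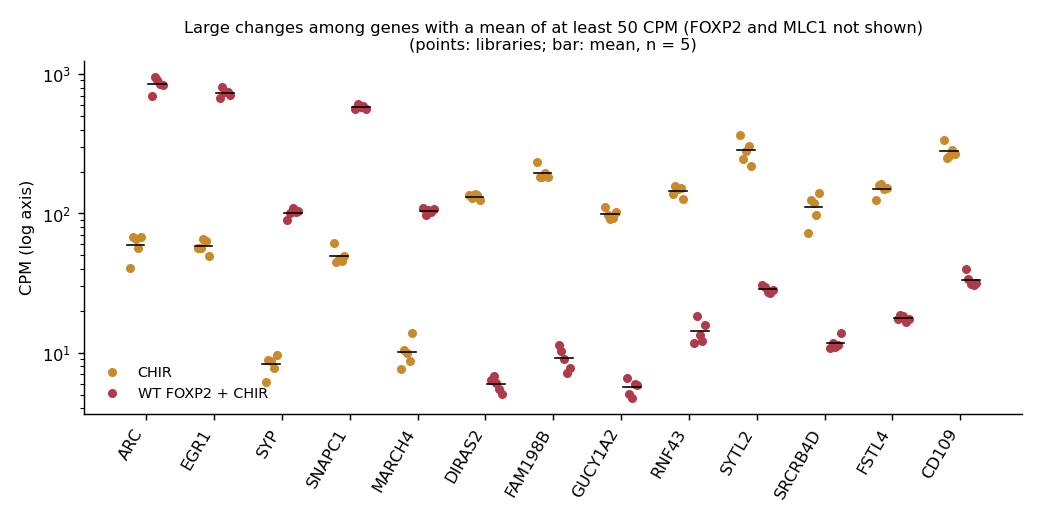
Level in CPM (log axis) of 13 of the genes with the largest changes among those with a mean of at least 50 CPM, FOXP2 and MLC1 left out, in each CHIR library (orange) and WT FOXP2 + CHIR library (red), with bars for means (n = 5). The libraries of the groups do not overlap for any gene shown, ARC sitting at 40.6 to 68.1 CPM against 696 to 955 CPM.

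The rest of the transcriptome is described through 31 gene lists. Each list is given by how many of its tested members were higher, lower or not past the threshold and by its median log2 fold change, to be read beside 38.2% higher, 40.2% lower and a median of -0.03 over all genes. Members had to pass a filter over all 6 groups, so a gene silent with CHIR alone could be tested because of its level with FOXP2. That can add rises to a list. For members with 0 counts in a group, setting the change to its bound left every list's median as it was.

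**Figure D4:**
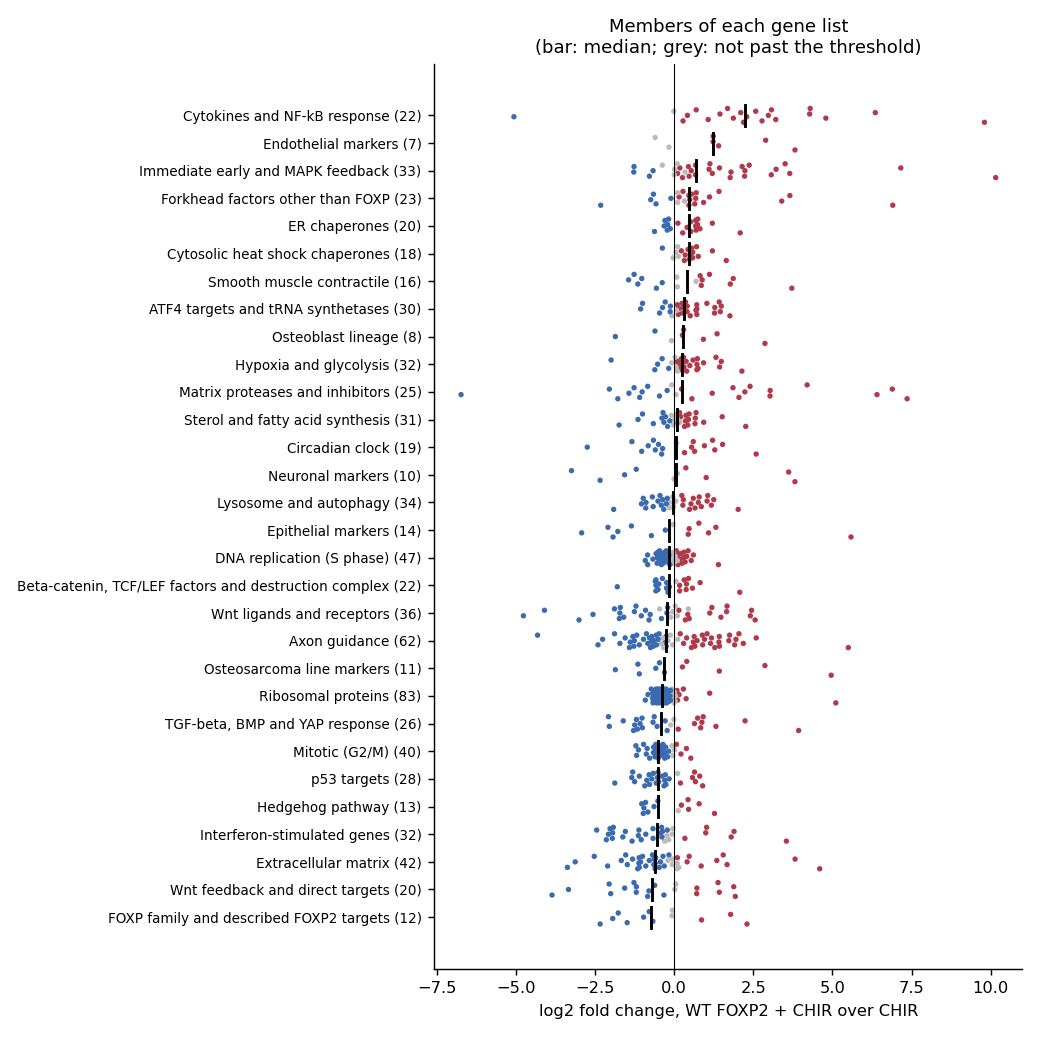
Log2 fold change of WT FOXP2 + CHIR over CHIR for each tested member of the 30 lists with at least 5 tested members, red for higher, blue for lower and grey for genes not past the threshold, with a bar at the median and the number tested in brackets. The cytokine list had the highest median, 2.24, and the list of FOXP family members and described FOXP2 targets the lowest, -0.73.

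Wnt feedback genes and direct targets fell more often than they rose with WT FOXP2. Of 25 listed feedback genes and direct targets, 20 were tested: 12 fell, 6 rose and 2 did not pass, with a median of -0.70. AXIN2, a scaffold of the destruction complex and a standard readout of β-catenin, was at 151, 137, 158, 157 and 121 CPM with CHIR and at 42.5, 58.0, 46.7, 48.0 and 50.8 CPM with WT FOXP2 (-1.56 ± 0.08). Its highest library with WT FOXP2 was still below the lowest without it, and all 5 were above the 19.8 to 22.1 CPM of mock cells. RNF43, a ubiquitin ligase that removes Wnt receptors, fell from 137, 158, 149, 152 and 126 CPM to 11.8, 18.3, 13.5, 12.1 and 15.9 CPM (-3.34 ± 0.13), below the 53.8 to 57.7 CPM of mock cells. TNFRSF19, a TNF receptor family member, fell from 30.8 ± 4.62 to 2.12 ± 0.510 CPM. NKD1, which binds Dishevelled to dampen the pathway, fell from 123 ± 23.5 to 29.8 ± 3.98 CPM. TNFRSF11B, the decoy receptor osteoprotegerin, fell from 250 ± 14.3 to 62.3 ± 4.52 CPM. LEF1, a β-catenin partner on DNA, fell less, from 126, 121, 132, 126 and 120 CPM to 75.6, 89.5, 81.1, 81.5 and 80.6 CPM (-0.61 ± 0.05). Targets went the other way too: the cell-cycle gene CCND1 rose from 102 to 266 CPM, the adhesion receptor CD44 from 103 to 278 CPM and the growth regulator MYC from 90.9 to 149 CPM.

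Components of the pathway itself moved in both directions and mostly by less. Of 22 tested genes for β-catenin, TCF and LEF partners and the destruction complex, 12 fell, 9 rose and 1 did not pass, with a median of -0.17. For this list CHIR replicate 1 lay below the other CHIR libraries, with a median log2 difference of -0.25. CTNNB1, which encodes β-catenin, was at 307, 293, 282, 295 and 297 CPM with CHIR and at 278, 263, 258, 268 and 260 CPM with WT FOXP2 (-0.15 ± 0.03), a small difference with no overlap between the groups. TCF7L1, a TCF factor that often acts as a repressor, fell from 9.69 ± 2.01 to 2.77 ± 0.347 CPM. PYGO1, a coactivator of β-catenin, fell by 0.60 on the log2 scale, while the Groucho-family corepressor TLE3 rose by 0.82 ± 0.05 and APC2, a neuronal relative of APC, rose from 0.618 ± 0.132 to 2.62 ± 0.478 CPM. The kinases of the complex stayed within a narrow range, GSK3A rising by 0.38 ± 0.07 and GSK3B falling by 0.24 ± 0.03.

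Among 36 tested Wnt ligands, receptors and secreted modulators, 18 fell, 12 rose and 6 did not pass, with a median of -0.22. The receptor kinase ROR1 fell from 26.2, 28.7, 27.6, 26.6 and 32.0 CPM to 4.99, 4.93, 4.74, 4.40 and 4.68 CPM (-2.56 ± 0.08). The ligand WNT6 fell from 20.9 ± 5.43 to 5.74 ± 1.49 CPM. In the other direction, the ligand WNT9A rose from 4.21, 3.73, 5.56, 5.12 and 4.29 CPM to 26.1, 28.6, 27.3, 29.1 and 24.9 CPM (2.56 ± 0.09), and the Frizzled receptor FZD8 rose from 2.26 ± 0.639 to 12.3 ± 0.686 CPM. Of the Frizzled genes, FZD1, FZD2, FZD3, FZD4, FZD6, FZD7 and FZD10 fell, FZD8 and FZD9 rose, and FZD5 had a log2 fold change of 0.10 ± 0.06 (adjusted p = 0.123). The co-receptor LRP5 fell by 1.59 ± 0.09 and LRP6 by 0.40 ± 0.04.

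Cytokine and NF-kB response genes were higher almost throughout. Of 28 listed genes, 22 were tested: 20 rose, CXCL6 fell and CXCL5 did not pass, with a median of 2.24. CCL5, CXCL1, CXCL2, IL1B, TNF and VCAM1 were too low to be tested. Members low without FOXP2 were tested only through their level with it, among them CSF3, at 0 in the CHIR and mock libraries. IL6 and ICAM1, at most at 0.231 and 0.783 CPM in any mock library and lower with CHIR, were too. The count and the median therefore lean upward, and a rise of such a gene was favoured by the filter. IL6, an inflammatory cytokine, was at 0 to 0.0622 CPM with CHIR and at 3.41, 3.18, 3.16, 3.23 and 3.19 CPM with WT FOXP2, and its 3 counts with CHIR against 325 gave a ratio of 96.7 with a 95% counting interval of 32.8 to 471. The leukocyte adhesion receptor ICAM1 rose from 0.129 ± 0.0924 to 3.86 ± 0.540 CPM. IL8, a neutrophil chemoattractant, rose from 5.29, 3.23, 3.30, 3.73 and 2.98 CPM to 78.8, 73.8, 74.0, 74.9 and 66.0 CPM (4.30 ± 0.09). The signalling adaptor TRAF1 rose from 3.07 to 59.5 CPM and the cytokine IL11 from 14.6 to 135 CPM. TNFAIP3, the deubiquitinase A20 that limits NF-kB signalling, was at 18.6, 20.3, 20.7, 19.4 and 21.7 CPM and rose to 121, 123, 117, 119 and 121 CPM (2.58 ± 0.06). The NF-kB subunits NFKB1, NFKB2, RELB and REL rose by 1.07, 1.87, 2.19 and 0.70 on the log2 scale, and the inhibitor NFKBIA by 0.42.

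The neutrophil-attracting chemokines CXCL3, CXCL5 and CXCL6, whose promoters share a letter-for-letter match, differed. CXCL3 was at 3.85, 3.11, 3.54, 3.22 and 2.56 CPM with CHIR and rose to 26.9, 28.3, 25.7, 24.0 and 24.3 CPM (2.98 ± 0.09). CXCL5 was at 0.435 to 1.28 CPM with CHIR and at 0.399 to 1.01 CPM with WT FOXP2, with a log2 fold change of -0.01 ± 0.34 (adjusted p = 0.975). CXCL6 was at 20.5, 12.999, 15.0, 17.7 and 11.1 CPM with CHIR and fell to 0.649, 0.569, 0.211, 0.334 and 0.456 CPM (-5.06 ± 0.21). CXCL3 and CXCL6 had groups without overlap in opposite directions, and the CXCL5 groups overlapped. CXCL6 had no count in any library without CHIR, with or without WT FOXP2.

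Promoters of the 5 genes just described are shown because they hold matches to the NF-kB site, the 10-base element that NF-kB dimers bind, while their genes went up, down or neither. Each sequence is the 250 bases before the transcription start from RefSeq (GRCh38.p14), 5′ to 3′ on the gene's strand, with matches in capitals. IL6 lies at chr7:22726950-22727199 on the plus strand, TNFAIP3 at chr6:137867009-137867258 on the plus strand, CXCL3 at chr4:74038690-74038939 on the minus strand, CXCL5 at chr4:73998678-73998927 on the minus strand and CXCL6 at chr4:73836428-73836677 on the plus strand.
IL6: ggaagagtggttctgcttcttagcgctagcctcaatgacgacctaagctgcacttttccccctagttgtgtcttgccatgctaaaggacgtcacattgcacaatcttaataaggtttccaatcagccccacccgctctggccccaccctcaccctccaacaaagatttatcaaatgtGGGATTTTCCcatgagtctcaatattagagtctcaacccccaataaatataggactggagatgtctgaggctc
TNFAIP3: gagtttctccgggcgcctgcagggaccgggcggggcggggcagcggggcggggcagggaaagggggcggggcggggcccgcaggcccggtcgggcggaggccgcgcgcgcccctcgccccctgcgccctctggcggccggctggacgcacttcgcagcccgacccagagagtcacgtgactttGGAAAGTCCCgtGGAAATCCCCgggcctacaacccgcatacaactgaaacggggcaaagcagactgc
CXCL3: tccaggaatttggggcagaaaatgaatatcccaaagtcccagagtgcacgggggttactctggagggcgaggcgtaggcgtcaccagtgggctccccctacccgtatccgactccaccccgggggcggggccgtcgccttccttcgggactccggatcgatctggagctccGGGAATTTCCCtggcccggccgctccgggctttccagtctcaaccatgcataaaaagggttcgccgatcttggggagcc
CXCL5: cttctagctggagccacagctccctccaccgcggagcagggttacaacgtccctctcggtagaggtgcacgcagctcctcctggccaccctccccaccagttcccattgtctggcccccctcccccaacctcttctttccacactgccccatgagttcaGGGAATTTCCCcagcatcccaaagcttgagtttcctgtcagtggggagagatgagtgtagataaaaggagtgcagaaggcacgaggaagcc
CXCL6: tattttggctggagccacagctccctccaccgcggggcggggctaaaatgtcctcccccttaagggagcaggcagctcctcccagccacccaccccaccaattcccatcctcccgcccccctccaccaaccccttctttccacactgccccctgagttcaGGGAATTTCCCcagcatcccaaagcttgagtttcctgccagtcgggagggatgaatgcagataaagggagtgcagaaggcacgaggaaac
CXCL3, CXCL5 and CXCL6 hold the same stretch, GGGAATTTCCC, which matches on both strands in overlapping frames. Of the 18 genes of the list with a promoter in the table, 10 (55.6%) held a match in this window, against 11.9% of the 12547 promoters of all genes tested, 12.2% of those of genes that rose and 11.6% of those of genes that fell. The list was drawn up from cytokine and NF-kB response genes, so a high share was built in and is no result about WT FOXP2. A match describes letters and not a bound site, and promoters were found for 67.9% of the genes tested, so shares over all genes speak only for those.

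Immediate early genes, which switch on within minutes of growth factor or stress signals, and feedback genes of the MAP kinase pathway were higher in most cases. Of 33 tested, 24 rose, 4 fell and 5 did not pass, with a median of 0.68. EGR1, a zinc-finger factor, was at 57.0, 56.1, 65.9, 63.6 and 49.1 CPM with CHIR and rose to 676, 808, 740, 743 and 709 CPM (3.65 ± 0.08, adjusted p = 1.36e-27). FOS rose from 8.27, 8.15, 7.92, 8.28 and 6.43 CPM to 84.6, 102, 89.0, 86.8 and 81.9 CPM (3.51 ± 0.09), and FOSB from 0.204 ± 0.130 to 29.7 ± 2.93 CPM (7.16 ± 0.19). FOS and FOSB are subunits of AP-1, and JUNB, another subunit, rose from 13.9 to 117 CPM. Among other subunits, JUN was at 217 and 220 CPM (0.01 ± 0.04, adjusted p = 0.78), JUND fell by 1.27 ± 0.09 and FOSL2 by 0.67 ± 0.04. The MAP kinase phosphatases DUSP1, DUSP2, DUSP5, DUSP8 and DUSP10 rose, whereas DUSP6 was at 0.696 and 0.560 CPM (-0.37 ± 0.26, adjusted p = 0.19).

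The EGR1 promoter is shown because it is a textbook target of serum response factor, whose CArG box it carries. The sequence is the 250 bases before the start from RefSeq (GRCh38.p14, chr5:138465229-138465478, plus strand), with the CArG boxes in capitals.
EGR1: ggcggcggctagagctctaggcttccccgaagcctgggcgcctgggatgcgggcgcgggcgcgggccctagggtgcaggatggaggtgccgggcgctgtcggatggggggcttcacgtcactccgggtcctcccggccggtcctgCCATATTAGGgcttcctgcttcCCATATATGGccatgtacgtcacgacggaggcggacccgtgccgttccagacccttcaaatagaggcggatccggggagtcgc
The boxes lie 105 to 96 and 83 to 74 bases before the start. Of the 26 genes of the immediate early list with a promoter in the table, EGR1 was the single gene with a CArG box in this window, and 1.01% of all 12547 promoters held one. SRF itself, the factor's gene, rose from 47.6 to 86.2 CPM (0.86 ± 0.06).

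Extracellular matrix genes fell in most cases. Of 42 tested, 27 fell, 9 rose and 6 did not pass, with a median of -0.59, and CHIR replicate 1 lay below the other CHIR libraries for this list (median log2 difference -0.28). Without this library 29 fell and 8 rose, and the counts of every list, higher and lower, stayed within 1.5 times those given here. The list medians were not computed without it. FN1, fibronectin, was at 4588, 4851, 5102, 5133 and 4397 CPM with CHIR and fell to 886, 881, 812, 774 and 833 CPM (-2.52 ± 0.08). The fibrillar collagen COL3A1 fell from 25.0, 35.3, 33.9, 32.3 and 32.7 CPM to 3.94, 3.41, 3.37, 3.34 and 4.11 CPM (-3.12 ± 0.09). The proteoglycan LUM fell from 10.9 ± 1.36 to 1.04 ± 0.245 CPM. COL1A1, the main collagen of bone, fell by 0.58 ± 0.11, COL5A1 by 1.67 ± 0.09 and SPARC, a collagen-binding glycoprotein, by 1.10 ± 0.04. Among the 9 that rose, FBLN2, a fibulin, rose from 0.179 ± 0.0457 to 2.603 ± 0.321 CPM, the collagen COL6A3 from 227 to 579 CPM and the matricellular THBS1 from 64.3 to 205 CPM.

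Matrix proteases and their inhibitors were split, with 13 of 25 tested genes higher, 10 lower and 2 not past the threshold, and a median of 0.23. The stromelysin MMP3 rose from 59.7, 57.7, 54.6, 53.5 and 75.2 CPM to 527, 453, 500, 513 and 459 CPM (3.03 ± 0.06). The collagenase MMP1 was at 0 to 0.190 CPM with CHIR and rose to 20.5, 13.9, 17.5, 16.7 and 14.5 CPM (6.89 ± 0.22). SERPINB2, the inhibitor PAI-2, rose from 0.208 ± 0.0832 to 35.9 ± 2.84 CPM, and the membrane-anchored MMP25 from 0.405 ± 0.199 to 3.36 ± 0.420 CPM. Against these, the gelatinase MMP2 fell from 311 to 174 CPM and the inhibitor TIMP2 from 193 to 46.8 CPM. Here CHIR replicate 1 lay below the other CHIR libraries, with a median log2 difference of -0.37.

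Genes of the TGF-beta, BMP and YAP response divided as well: 15 of 26 tested fell, 9 rose and 2 did not pass, with a median of -0.41. The matricellular gene CTGF rose from 22.9, 18.2, 19.4, 20.1 and 17.1 CPM to 98.5, 84.5, 95.3, 91.8 and 93.0 CPM (2.24 ± 0.06). BMP-responsive inhibitors fell: ID4 from 22.5 ± 3.57 to 5.32 ± 0.422 CPM, SMAD6 from 1.70 ± 0.330 to 0.407 ± 0.0636 CPM and ID1 by 1.19 ± 0.05. Of 16 tested smooth muscle contractile genes, 7 rose, 6 fell and 3 did not pass, with a median of 0.40. SMTN, smoothelin, rose from 92.8 ± 15.3 to 338 ± 13.6 CPM, while CALD1, caldesmon, fell from 95.1 ± 11.4 to 39.5 ± 2.11 CPM, TPM1, a tropomyosin, from 93.0 ± 10.03 to 42.0 ± 1.88 CPM and the SRF coactivator MKL2 from 103 ± 6.30 to 37.8 ± 1.29 CPM. Of 20 osteoblast genes listed, 8 were tested and 5 rose, 2 fell and 1 did not pass. RUNX2, the master regulator of bone formation, fell from 111, 107, 110, 112 and 100 CPM to 28.7, 30.3, 30.0, 29.8 and 30.2 CPM (-1.86 ± 0.05). The bone alkaline phosphatase ALPL rose from 2.40 ± 0.970 to 17.7 ± 1.88 CPM, the vitamin D receptor VDR from 18.6 ± 2.42 to 47.8 ± 1.77 CPM, and the morphogen BMP2 fell by 0.61 ± 0.06.

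Stress-response lists leaned upward by small amounts. Of 20 tested ER chaperone genes, 13 rose and 7 fell, with a median of 0.46. ERO1LB, an ER oxidase, rose from 7.90 ± 1.88 to 33.7 ± 2.26 CPM, CRELD2 from 48.4 ± 6.38 to 112 ± 6.34 CPM, SDF2L1 by 0.82 ± 0.07 and HERPUD1 by 0.75 ± 0.04, all known to rise when proteins misfold in the ER. The ER chaperone HSPA5 rose from 603 to 966 CPM, while the disulfide isomerase PDIA4 fell by 0.62 ± 0.03. Of 18 tested cytosolic heat shock genes, 13 rose, HSPB1 fell and 4 did not pass, with a median of 0.46. The cochaperone BAG3 rose from 28.1, 37.2, 40.8, 36.5 and 37.0 CPM to 103, 116, 118, 112 and 114 CPM (1.65 ± 0.06), and HSPB8, HSPH1 and HSPA4 rose by 1.21, 0.76 and 0.71. Of 30 tested targets of ATF4 and tRNA synthetases, the amino acid response, 21 rose, 7 fell and 2 did not pass, with a median of 0.32. PPP1R15A, which restores translation after stress, rose from 89.1 ± 3.13 to 303 ± 16.8 CPM. The amino acid transporter subunits SLC7A5 and SLC3A2 rose from 299 ± 44.9 to 820 ± 37.0 CPM and from 287 ± 17.7 to 771 ± 36.6 CPM, and the secreted STC2 from 0.898 ± 0.164 to 2.57 ± 0.673 CPM. The serine synthesis enzyme PHGDH fell from 342 to 171 CPM.

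Mitotic genes were lower. Of 40 tested, 33 fell, 4 rose and 3 did not pass, with a median of -0.50, and CHIR replicate 1 lay above the other CHIR libraries for this list (median log2 difference 0.18). TOP2A, which untangles replicated DNA, was at 1061, 812, 770, 825 and 827 CPM with CHIR and fell to 404, 359, 376, 371 and 377 CPM (-1.19 ± 0.05). CENPF, a kinetochore protein, fell from 623, 477, 461, 475 and 484 CPM to 234, 214, 201, 219 and 223 CPM (-1.21 ± 0.06). CHIR replicate 1 was the highest CHIR library for both, and the groups were apart with or without it. NUSAP1, a spindle protein, fell from 168 ± 11.1 to 76.7 ± 2.43 CPM, and the phosphatase CDC25B from 128 ± 17.6 to 65.3 ± 1.30 CPM. The mitotic kinases AURKA and PLK1 rose, by 0.53 ± 0.03 and 0.39 ± 0.05. Of 47 tested DNA replication genes, 25 fell, 14 rose and 8 did not pass, with a median of -0.17. The primase subunit PRIM1 fell by 0.91 ± 0.06, the thymidylate synthase TYMS by 0.84 ± 0.04 and the ligase LIG1 by 0.83 ± 0.05, while the G1/S cyclin CCNE1 rose from 44.8 ± 2.94 to 118 ± 1.67 CPM.

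Ribosomal protein genes fell in most cases, every fall being by less than 2-fold. Of 83 tested, 67 fell, 7 rose and 9 did not pass, with a median of -0.37. RPL3 was at 1832, 2148, 2048, 2053 and 2140 CPM with CHIR and fell to 1150, 1128, 1166, 1166 and 1154 CPM (-0.83 ± 0.03). RPL7A fell from 1442 ± 128 to 874 ± 35.6 CPM. Their paralogs moved both ways, RPL22L1 falling from 121 ± 29.5 to 64.6 ± 2.94 CPM and RPL26L1 rising from 14.7 ± 1.38 to 32.1 ± 2.41 CPM. Ribosomal protein genes have many near-identical pseudogenes, so their counts are uncertain to the extent that reads were shared. Of 28 tested p53 targets, 21 fell, 6 rose and 1 did not pass, with a median of -0.50. TP53INP1, a stress-induced autophagy protein, fell from 24.4 ± 3.14 to 6.65 ± 0.456 CPM, the repair factor DDB2 from 79.4 ± 3.22 to 31.4 ± 1.69 CPM, the oxidoreductase TP53I3 from 60.9 ± 8.02 to 24.6 ± 0.555 CPM and the cyclin CCNG1 from 208 ± 36.0 to 87.7 ± 6.19 CPM. CDKN1A, the cell-cycle inhibitor p21, rose from 167 to 261 CPM.

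Most interferon-stimulated genes fell, 21 of 32 tested, with 6 higher, 5 not past the threshold and a median of -0.54. PARP9, an antiviral ADP-ribosyltransferase family member, fell from 37.9 ± 2.78 to 9.79 ± 0.670 CPM. The RNA sensor IFIH1 fell from 5.97 ± 1.71 to 1.42 ± 0.287 CPM and the restriction factor SAMD9L from 3.53 ± 0.855 to 0.853 ± 0.296 CPM. OASL went the other way, from 0.346 ± 0.125 to 4.11 ± 0.412 CPM (3.55 ± 0.17).

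Metabolic lists were mixed. Of 31 tested sterol and fatty acid synthesis genes, 15 rose, 10 fell and 6 did not pass, with a median of 0.09. INSIG1, the ER anchor that holds back sterol synthesis, rose from 13.05, 12.5, 11.9, 12.8 and 14.5 CPM to 56.6, 66.6, 60.2, 63.6 and 63.9 CPM (2.26 ± 0.06), and HMGCS1, an early enzyme of the sterol pathway, rose from 167 ± 20.4 to 478 ± 14.1 CPM. The fatty acid desaturases FADS2 and FADS1 fell by 1.74 ± 0.07 and 1.14 ± 0.04. Of 32 tested hypoxia and glycolysis genes, 23 rose, 5 fell and 4 did not pass, with a median of 0.25. The vasoactive peptide ADM rose from 1.38 ± 0.250 to 6.09 ± 0.822 CPM, and the lactate exporter SLC16A3 and the regulatory enzyme PFKFB4 rose by 1.49 ± 0.10 and 1.44 ± 0.08. The glucose transporter SLC2A3 fell from 235 ± 8.17 to 59.1 ± 3.17 CPM. Of 34 tested lysosome and autophagy genes, 15 rose, 14 fell and 5 did not pass, with CHIR replicate 1 at a median log2 difference of -0.23 from the other CHIR libraries. The autophagy adaptor GABARAPL1 rose from 10.03 ± 1.08 to 41.0 ± 2.51 CPM, the lysosomal regulator TFEB and the channel MCOLN1 rose by 1.25 ± 0.12 and 1.18 ± 0.07, and the cholesterol carrier NPC2 fell from 282 ± 18.9 to 75.0 ± 1.92 CPM. Of 19 tested clock genes, 9 rose and 9 fell. The clock repressor NR1D1 rose from 17.3 ± 3.22 to 104 ± 2.94 CPM and PER1 from 28.8 ± 5.19 to 83.3 ± 4.17 CPM, whereas RORA, which acts on the same DNA elements as NR1D1, fell from 81.4 ± 17.6 to 12.2 ± 0.570 CPM and its relative RORB by 1.33 ± 0.17.

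Axon guidance genes, a group often described for FOXP2 in neurons, moved both ways: 29 of 62 tested fell, 26 rose and 7 did not pass, with a median of -0.25. PLXNC1, a semaphorin receptor, was at 99.1, 91.6, 100, 94.8 and 90.6 CPM with CHIR and fell to 5.20, 5.07, 4.38, 4.62 and 4.50 CPM (-4.31 ± 0.08, adjusted p = 1.37e-32). EPHA4, an ephrin receptor, rose from 12.4, 11.01, 11.2, 11.9 and 10.2 CPM to 70.6, 67.9, 70.5, 65.6 and 68.0 CPM (2.59 ± 0.07). The Slit receptor ROBO2 fell from 2.86 ± 0.187 to 0.593 ± 0.245 CPM, and PLXNA4 rose from 0.800 ± 0.343 to 3.69 ± 0.351 CPM. The median log2 difference of CHIR replicate 1 from the other CHIR libraries was -0.31 for these genes. Of 13 tested Hedgehog pathway genes, 7 fell, 5 rose and 1 did not pass, with a median of -0.51. The transcription factors GLI2 and GLI3 fell by 1.02 ± 0.06 and 0.95 ± 0.04 and the co-receptor CDON by 0.98 ± 0.08. The same shift of CHIR replicate 1 was -0.36 here.

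Of 15 genes that are FOXP relatives or have been described as FOXP2 targets, 12 were tested: 7 fell, 3 rose and 2 did not pass, with a median of -0.73. FOXP1, the closest relative in function, fell from 19.4, 18.5, 19.1, 20.1 and 18.7 CPM to 5.601, 4.84, 5.11, 4.51 and 4.73 CPM (-1.94 ± 0.09). FOXP3 rose from 0.757 ± 0.239 to 2.57 ± 0.222 CPM, and FOXP4 by 0.87 ± 0.08. DISC1, a scaffold studied in neurodevelopment, fell from 17.8 ± 1.59 to 3.503 ± 0.477 CPM. PLAUR, the urokinase receptor, rose from 29.4, 42.5, 44.0, 39.2 and 40.1 CPM to 196, 175, 203, 198 and 190 CPM (2.30 ± 0.06). CNTNAP2 and SRPX2, listed as described FOXP2 targets as PLAUR is, fell by 1.77 ± 0.22 and 0.96 ± 0.04. The receptor MET had a log2 fold change of -0.06 ± 0.04 (adjusted p = 0.241). Of 23 tested forkhead genes outside the FOXP family, 15 rose, 5 fell and 3 did not pass, with a median of 0.47, and the median log2 difference of CHIR replicate 1 was again -0.23. FOXJ1, the regulator of motile cilia, was at 0 in 3 CHIR libraries and rose to 3.65, 5.45, 5.43, 5.02 and 4.33 CPM. Its 3 counts with CHIR against 474 gave a ratio of 141 with an interval of 47.9 to 686, and the fitted log2 change of 6.91 became 7.94 without CHIR replicate 4. FOXA1 and FOXA3, factors of endoderm, rose from 0.348 ± 0.170 to 4.44 ± 0.248 CPM and from 0.267 ± 0.139 to 2.90 ± 0.403 CPM, and FOXN3 fell from 71.6 ± 3.69 to 14.3 ± 1.39 CPM.

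Markers of other cell types moved with WT FOXP2 in this culture of a single line. The summed level of 10 endothelial markers was 8.12 to 15.6 CPM with CHIR and 47.4 to 55.8 CPM with WT FOXP2. CLDN5, EMCN and FLT1 were at 0 in the CHIR libraries and stayed near 0 with WT FOXP2, at means of 0.0114, 0.0485 and 0.0960 CPM. Of the 7 tested, 5 rose, among them VWF from 2.71 ± 0.469 to 20.03 ± 3.48 CPM, ENG from 8.81 ± 2.41 to 23.3 ± 1.03 CPM and the receptor TIE1 from 0.407 ± 0.175 to 5.79 ± 0.622 CPM. The 2 that did not pass were CDH5, at means of 0.232 CPM with CHIR and 0.195 CPM with WT FOXP2, and KDR, at 0.730 and 0.472 CPM. For these markers CHIR replicate 1 stood at a median log2 difference of -0.80 from the other CHIR libraries. The 14 blood markers summed to 96.6 to 141 CPM with CHIR and 70.4 to 74.4 CPM with WT FOXP2, with CD2, HBA1, HBA2, HBB and NKG7 among those at 0 in the CHIR libraries and CD3E, HBB and NKG7 at 0 with WT FOXP2. Most of that sum was GZMB, granzyme B, which fell from 118 ± 18.7 to 52.8 ± 2.19 CPM, while the integrin ITGAM rose from 0.563 ± 0.162 to 16.5 ± 0.599 CPM and the T cell receptor subunit CD3D from 0.373 ± 0.128 to 2.19 ± 0.397 CPM. The 12 neuronal markers summed to 140 to 159 CPM with CHIR and 185 to 204 CPM with WT FOXP2, and 4 of 10 tested rose and 4 fell. Among these SYP rose, as given above, and MAP2, a dendrite protein, fell from 19.4 ± 2.29 to 2.06 ± 0.325 CPM, SYT1 from 31.3 ± 5.82 to 6.19 ± 0.459 CPM and SNAP25 from 31.1 ± 3.27 to 10.5 ± 1.29 CPM. The 19 epithelial markers summed to 923 to 1080 CPM with CHIR and 793 to 858 CPM with WT FOXP2, with 6 of 14 tested higher and 7 lower. DSP, desmoplakin, rose from 0.0809 ± 0.0528 to 4.01 ± 0.784 CPM, and KRT5, KRT17 and DSC2 fell by 2.92, 2.09 and 1.93 on the log2 scale. The 13 markers of the line itself summed to 3156 to 3867 CPM with CHIR and 2478 to 2642 CPM with WT FOXP2, CDH2 falling by 1.14 ± 0.04 and CD44 rising by 1.43 ± 0.04. In bulk RNA, fewer cells of a type and less RNA per cell cannot be told apart, and the part of such cells in the results above was not tested.

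How the WT FOXP2 effect depended on CHIR was tested as the interaction, the change with CHIR minus the change from mock to WT FOXP2 without CHIR, which share no library. Without CHIR, 81.6% of genes passed the threshold, 39.9% higher and 41.6% lower. The interaction passed the threshold for 12130 of 18485 genes (65.6%), 5677 with a higher (30.7%) and 6453 with a lower (34.9%) change with CHIR, and it was at least 2-fold in 15.0% and 6.77% of genes. The direction was the same in both settings for most genes called in both: 4935 besides FOXP2 were higher in both and 5033 lower in both, which is 69.9% and 67.8% of the genes that rose and fell with CHIR and 66.8% and 65.4% of those that did so without. For 3861 of the genes with a shared direction and a called interaction the change was smaller with CHIR, and for 2045 larger. In the opposite direction, 1055 genes were higher with CHIR and lower without, and 1248 lower with CHIR and higher without, and the interaction passed for all 2303. Called changes of opposite sign add up in the interaction, so that it passed for these genes was close to fixed in advance. Across genes, which are not independent replicates, the changes correlated with Pearson's r = 0.64 and Spearman's rho = 0.61. The FOXP2 level also differed, 15299 ± 983 CPM with CHIR and 7076 ± 779 CPM without, so a change in dose and an effect of CHIR cannot be told apart here.

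**Figure D5:**
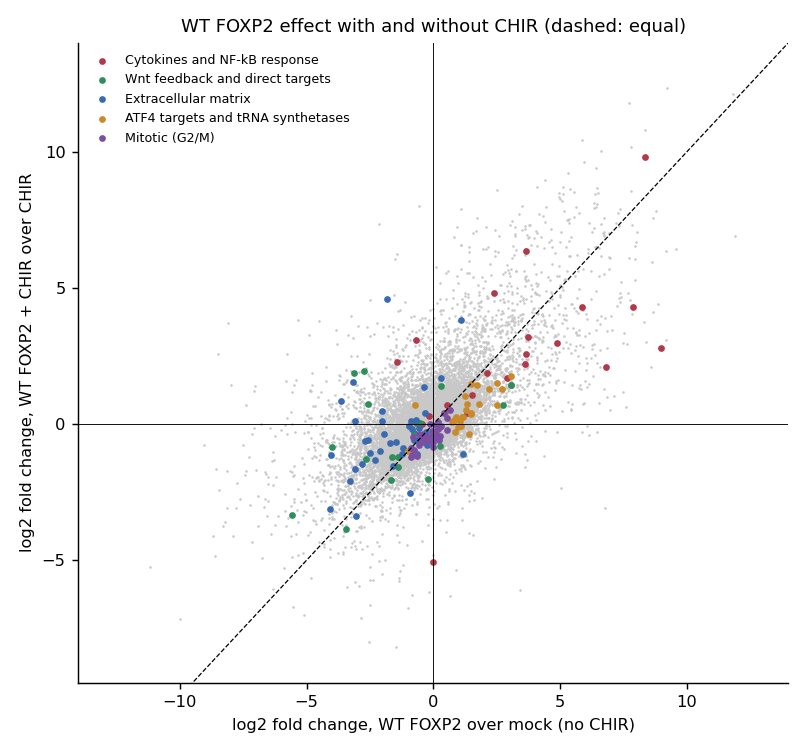
Log2 fold change of WT FOXP2 with CHIR (vertical) against that without CHIR (horizontal), 1 grey point per gene other than FOXP2, members of 5 lists in colour, the dashed line marking equal changes. Mitotic genes lie mostly below the line and so do ATF4 targets, with 31 of 40 and 24 of 30 having a lower change with CHIR.

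The Wnt feedback genes differed in this respect. The fall of AXIN2 was -1.56 with CHIR and -1.38 without, and the interaction did not pass (-0.19, adjusted p = 0.25). LEF1 fell slightly more with CHIR (interaction -0.22, adjusted p = 0.0146), and RNF43 fell less, by 3.34 against 5.59 (interaction 2.25, adjusted p = 3.48e-08). Without CHIR, RNF43 was at 53.8 to 57.7 CPM in mock cells and at 0.688 to 1.84 CPM with WT FOXP2. CTNNB1 had an interaction of 0.13 (adjusted p = 0.00375).

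The genes whose interaction had the smallest p included several that CHIR alone had already moved. LMCD1, a LIM-domain cofactor, was at 161 to 176 CPM in mock cells and fell to 19.6 to 21.1 CPM with WT FOXP2, whereas with CHIR it rose from 11.4 to 14.5 CPM to 32.1 to 37.6 CPM (interaction 4.49 ± 0.08). SMOC1, a matricellular protein, was at 103 to 111 CPM in mock and 8.22 to 9.22 CPM with WT FOXP2, and rose with CHIR from 1.98 to 2.98 CPM to 3.84 to 5.02 CPM (interaction 4.49 ± 0.11). The clock-linked repressor BHLHE41 and the Hedgehog receptor PTCH1 followed the same pattern, with interactions of 4.43 ± 0.08 and 3.27 ± 0.08. ENC1, an actin-binding protein, and RAB11FIP4, a vesicle transport protein, fell in both settings and by less with CHIR, by 0.76 against 2.83 and by 2.39 against 5.34. In the other direction, SLAMF7, a lymphocyte receptor, rose without CHIR from 3.87 to 4.26 CPM to 55.6 to 61.1 CPM and fell with CHIR from 89.7 to 105 CPM to 66.8 to 74.3 CPM (interaction -4.29 ± 0.07). The matrix glycoprotein TNC rose without CHIR by 1.18 and fell with CHIR from 2104, 2361, 2476, 2426 and 2169 CPM to 1052, 1088, 1059, 1027 and 1104 CPM (interaction -2.29 ± 0.05). MGAT5, a glycosyltransferase, rose without CHIR from 143 to 285 CPM and fell with it from 1298 ± 38.4 to 408 ± 18.3 CPM, and the actin-bundling LIMA1 rose from 43.7 to 221 CPM without CHIR and fell from 209 ± 24.4 to 130 ± 3.96 CPM with it. DUSP5, an ERK phosphatase, rose in both settings, by 3.09 without CHIR and 0.45 with it, and DOCK4, a Rac activator, rose by 2.90 without CHIR and had a change of -0.06 ± 0.04 with it (adjusted p = 0.192).

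List by list, the medians with CHIR and without it were 2.24 and 2.98 for cytokines, -0.59 and -1.36 for extracellular matrix, 0.32 and 1.16 for ATF4 targets, -0.51 and -1.58 for the Hedgehog pathway, -0.50 and -0.10 for mitotic genes and -0.37 and 0.13 for ribosomal proteins. Over all genes they were -0.03 and -0.02. For ribosomal proteins 78 of 83 genes had a lower change with CHIR by the interaction and RPL3L, a muscle paralog, a higher one, and 49 genes rose without CHIR where 67 fell with it. For matrix genes the interaction was higher in 29 and lower in 7 of 42, and for Hedgehog genes higher in 12 and lower in 1 of 13. Over all genes tested 30.7% had a higher and 34.9% a lower interaction.

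Set against dhelix FOXP2 with CHIR, 5655 of 18485 genes (30.6%) differed, 2578 higher (13.9%) and 3077 lower (16.6%) with WT FOXP2, but 116 (0.628%) were at least 2-fold higher and 283 (1.53%) at least 2-fold lower. The level of FOXP2 itself was 15299 CPM for the wild type and 13481 CPM for dhelix (log2 difference 0.18 ± 0.08, adjusted p = 0.106). This comparison and the one over CHIR share the 5 WT FOXP2 + CHIR libraries. The stress factor DDIT3 was at 130, 135, 145, 139 and 128 CPM with WT FOXP2 and at 69.7 CPM on average with dhelix FOXP2 (0.96 ± 0.04), and NR1D1 at 104 and 45.1 CPM (1.21 ± 0.06). NEURL3, DENND3, TSPAN2 and the histone gene HIST1H4H, whose copies may share reads, were higher by 1.43, 1.13, 1.29 and 0.81. MUC5AC and MAL, among the largest rises over CHIR, were lower with WT FOXP2 than with dhelix FOXP2, at 53.1 against 151 CPM (-1.51 ± 0.07) and at 31.0 against 87.9 CPM (-1.50 ± 0.07). INSIG1 was at 62.2 and 127 CPM (-1.03 ± 0.05), and the channel ANO2, the transporter SLC22A20 and the secreted FSTL1 were lower by 0.87, 1.45 and 0.54 (log2 differences -0.87, -1.45 and -0.54). ATF4 targets were higher with WT FOXP2 in 22 of 30 and lower in 0, and matrix genes higher in 2 and lower in 25 of 42.

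Promoters were searched for letters that forkhead factors are described to bind. On either strand, TATTTAT was searched as a forkhead-type element. The same was done for TATTTGT, a second such element, which overlaps the first in its opening letters. The core forkhead element TGTTTAC completed this type. For TCF and LEF factors the element searched was ATCAAAG. Within the 250 bases before the start, 5.73% of 12547 promoters held at least 1 forkhead-type match. The share was 5.43% for genes that rose, 6.17% for genes that fell and 5.38% for genes not past the threshold, and 6.25% and 8.30% for those at least 2-fold higher and at least 2-fold lower. With the 50 bases after the start added, these shares were 6.30% over all genes, 6.92% for genes at least 2-fold higher and 8.95% for genes at least 2-fold lower. The TCF and LEF type motif was in 1.35% of all promoters, 1.39% of those of genes that rose and 1.26% of those of genes that fell. Of 37 genes among FOXP2, CTNNB1, AXIN2, LEF1 and those with the largest changes, 25 had a promoter in the table, and among them a forkhead-type match was in FOXP2 alone and the TCF and LEF type in 0. No match says only that these letters are not in the window.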

How the data were processed

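RNA was measured by paired-end, stranded, poly(A)-selected RNA-seq in 30 libraries of 6 groups. The values are counts per gene, which the authors deposited as 1 table of 57373 genes. Per the submitters' processing notes, STAR 2.6.1a, featureCounts, Subread, DESeq2 and hg19 were used. Which annotation release served, how strand was set and what was counted (reads or fragments) is not given in the sources used here, so overlapping and antisense genes are uncertain.

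Genes were filtered with filterByExpr over the 6 groups, leaving 18485 genes with 99.9% of the counts. 1 edgeR (4.0.16, R 4.3.3, limma 3.58.1) quasi-likelihood fit with TMM scaling over all 30 libraries gave every contrast, so the groups shared 1 estimate of the spread. P-values were adjusted by Benjamini and Hochberg over all genes and the threshold was 0.05. CPM used TMM-scaled library sizes. The fit was tested on simulated data of 18135 genes: the share of changed genes found was 50% at 1.2-fold, 78% at 1.5-fold and 100% at both 2-fold and 4-fold, with 5 false calls among 17935 unchanged genes. Few genes were changed there, equally in both directions, with independent noise and no library apart from its group. The simulation therefore does not speak for scaling or false calls where most genes change, as in these data. Alternatives were DESeq2 (1.42.0), its size factors, other filters, FOXP2 left out of library sizes, only the compared groups in the fit, a replicate block, a test against a 2-fold change and leaving out libraries.

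Genes were named as FOXP2, CTNNB1, AXIN2 and LEF1, those with the largest changes at a mean of at least 1 and at least 50 CPM, up to 4 of the largest changes of each list at a mean of at least 1 CPM, and those with the smallest p for the interaction and against dhelix FOXP2 at the same minimum. Other list members named were picked after their values were seen. The libraries compared, the lists and the rules were chosen with earlier results of these data known, and the NF-kB and CArG searches were added after the files were seen. Same-numbered CHIR and WT FOXP2 + CHIR libraries were checked for shared deviations. Counting intervals (95%) and floors (3 counts per library) cover counting error only, since reads carried no molecular identifiers. Results for some genes are not reported here.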

Additional observations from a re-analysis of the deposited data

Results flagged for a closer look

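Values were taken from the CHIR and WT FOXP2 + CHIR libraries, for each gene examined and for the number of genes detected. Groups with no spread were left out. In the remaining 71 groups of 5 libraries, a test for a single value far from the others picked out 5. Its chance rate of about 1 in 20 assumes normally spread values and does not hold for counts near 0. A lone count beside libraries at 0 is always picked out, so the 5 are a description. CHIR replicate 4 held the most FOXP2 of its group, at 1.33 CPM. CHIR replicate 4 held 0.0632 CPM of LPAR6 and CHIR replicate 5 held 0.0595 CPM of MAL, each a single count where the other 4 libraries had 0. WT FOXP2 + CHIR replicate 3 held 0.0527 CPM of PART1, also a single count. KANK4 was lowest in CHIR replicate 1, at 9.19 CPM.

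The WT FOXP2 effect with CHIR minus that without, on the log2 scale, passed the threshold of edgeR's quasi-likelihood test for 120 of 151 named genes, beside 65.6% of all genes tested. The 151 were named for their change with CHIR or as FOXP2, CTNNB1, AXIN2 and LEF1, and that change is part of the difference tested, so the count is a description. Among the genes chosen for the smallest p of this difference, it was 4.49 for LMCD1, 4.43 for BHLHE41, 2.07 for ENC1, 3.27 for PTCH1, 2.95 for RAB11FIP4 and 4.49 for SMOC1. In the other direction it was -4.29 for SLAMF7, -2.66 for MGAT5, -2.29 for TNC, -3.03 for LIMA1, -2.96 for DOCK4 and -2.64 for DUSP5.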

How the results depend on the processing

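Leaving out 1 library at a time gave 6983 to 7446 genes higher and 7021 to 7323 lower with WT FOXP2 and CHIR, and 5531 to 5992 higher and 6083 to 6438 lower for the interaction. Against dhelix FOXP2 the ranges were 2280 to 2632 higher and 2523 to 2866 lower. With only the compared groups in the fit, 3398 were higher and 3385 lower than with dhelix FOXP2, and without CHIR replicate 1 and WT FOXP2 + CHIR replicate 4 together 3334 and 3283, where the reported fit gave 2578 and 3077. The excess of lower calls there was thus not seen under these settings. For the change over CHIR, DESeq2 called 7260 higher and 7101 lower. A test against a 2-fold change left 1846 higher and 1482 lower, 1607 and 711 for the interaction, and 9 and 14 against dhelix FOXP2. Under that test 27 changes of named genes no longer passed, CTNNB1 and LEF1 among them, and no value of a named gene reversed under any alternative run. Without CHIR replicate 1, 6 called genes changed sign, and 10 did so without WT FOXP2 + CHIR replicate 4 as well. The median over all genes moved by less than 0.1 on the log2 scale under each scaling.

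Same-numbered CHIR and WT FOXP2 + CHIR libraries deviated together with r = 0.25, -0.02, 0.11, -0.00 and 0.06, so the numbers were not taken to pair the samples. With a replicate block, 7082 genes were higher and 7413 lower, 5679 and 6453 for the interaction, and 2610 and 3123 against dhelix FOXP2.

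Depth limits genes of a few counts, whose folds rest on single reads. The labels name 5 biological replicates of 1 line, so the p-values speak for spread between these cultures. CHIR replicate 1 stands apart, and no batch is given in the labels.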
